A study of Rattus norvegicus with 35 samples.

Results

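The arrays described here compared the mammary glands of rat offspring exposed before birth to a low dose of bisphenol A (BPA) together with dietary genistein with the glands of control offspring. The members were the 5 arrays labelled as BPA at 25 µg/kg/day plus genistein (BPA25+genistein) and the 5 arrays labelled as negative controls, 10 of the 35 arrays of the series, and each was described across all 41012 probes of the array that are not controls. BPA25+genistein animals were born to Sprague-Dawley dams given BPA by gavage from gestational day 10 to 21, on chow with 250 mg/kg genistein (about 5.5 mg/kg/day). The dosing of the dams of control animals, gavage or chow, is not given in the sources used here. All were females killed on postnatal day 21, and 150 ng of RNA from the abdominal left gland was labelled for each array. The offspring are described as coming from different litters, without a litter for each array. No group had genistein without BPA, so the nearest reference for the diet was the BPA25 group, 5 animals with the same BPA dose and no genistein. The group most like BPA25+genistein was BPA250+genistein, with the same chow and 250 µg/kg/day of BPA. Other groups used here for comparison were BPA250, and BPA25+I3C and BPA250+I3C, whose dams had chow with 2000 mg/kg indole-3-carbinol (I3C, about 45.0 mg/kg/day) in place of genistein.

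BPA is a plastics monomer and genistein a soy isoflavone, and both bind oestrogen receptors. At weaning the rat mammary gland is a small tree of ducts, lined by luminal and myoepithelial cells, inside a fat pad of adipocytes, fibroblasts, vessels and immune cells. The abdominal pad lies under the skin and over the muscle of the body wall. Skeletal muscle fibres are of fast-twitch and slow-twitch types, which use different genes for the same parts of the contractile machinery: myosin heavy and light chains pull on actin, troponins and tropomyosin make the pull depend on calcium, and calcium pumps, calsequestrin and parvalbumin set the calcium level. Creatine kinase, myoglobin and muscle enolase supply energy and oxygen to the fibre.

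Levels are given as log2 signal relative to the 75th percentile of each array, so that 0 is the 75th percentile of the probes. Differences are BPA25+genistein minus control on the same log2 scale, with the standard error (SE) from limma fitted to all 35 arrays. Testing took in the 16152 genes whose probe reached the well-above-background call on 4 or more of the 5 arrays in any group. Of these, 0 passed a Benjamini-Hochberg adjusted p of 0.05 (0.0%), and 271 had an unadjusted limma p under 0.05 (1.68%), 102 of them higher (0.632%) and 169 lower (1.05%) in BPA25+genistein. The smallest adjusted p was 0.544. All values below that carry an unadjusted p are therefore descriptions of genes that did not pass. The median difference of all genes was 0.04, with 55.5% of genes higher and 44.5% lower in mean in BPA25+genistein.

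Some arrays stood apart. The 4 arrays of slide 3, among them replicate 2 of both groups, had 93.4% to 96.4% of probes well above background, against 31.9% to 72.2% on the other 31 arrays. On replicate 4 of BPA25+genistein, 43 probes read over 4-fold below every other array. The rectangle around their spots, called the dark block here, holds 8.36% of the array's probe spots, and not every spot in it read low. Genes with a probe in that block are marked where they are named. The limits of detection also differed: the lowest signal called well above background lay between -4.80 and -1.77 on BPA25+genistein arrays and between -4.39 and -2.18 on control arrays. Values below these limits have no order, and spots not called could read above the lowest called signal of their array. The labels' tissue is a whole gland, and its adipocyte and luminal markers were detected: all 12 listed adipocyte genes and 12 of 14 listed luminal genes were measured.

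Genes of skeletal muscle were among those with the widest differences. All 16 measured genes of the fast-twitch list had lower means in BPA25+genistein, with a median difference of -4.60 and a range of -6.19 to -1.77, and all 16 had an unadjusted p under 0.05, against 1.05% of all genes in that direction. All 13 measured genes of the slow-twitch list had lower means too, with a median of -2.31 and a range of -3.44 to 0.00, and 9 had an unadjusted p under 0.05. None of these 29 genes passed the adjusted threshold. Of the 29, 13 were well above background on at least 4 BPA25+genistein arrays and 28 on at least 4 control arrays, so many were measured only through groups where they were high, and the counts and medians describe the lists without supporting a difference. After normexp correction with quantile normalization the medians were -3.09 for the fast and -0.71 for the slow list, and the slow median was -0.93 in the authors' deposited table and -0.46 over genes detected on all 10 arrays. In whole-gland RNA, fewer muscle fibres and less RNA per fibre cannot be told apart.

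The proximal promoters of 3 of these genes are shown because they carry the sequence motifs through which muscle genes are known to be switched on. Bases are the 250 before the RefSeq transcription start in the GRCr8 assembly, 5′ to 3′ on the gene's strand. Capitals mark the E-box CAGCTG, bound by MyoD and myogenin and identical on both strands, and the consensus of the MEF2 factors, searched on both strands. The motifs do not overlap. Ckm is muscle creatine kinase and had a difference of -6.19, although 2 of its 5 BPA25+genistein spots were not well above background (chr1:88189211-88189460, plus strand). Myh4 is the myosin heavy chain of the fastest fibres (chr10:52421898-52422147, plus strand). Myoz2 is myozenin 2, a protein of the Z-disc in slow and cardiac fibres, and had the smallest p of all genes (chr2:213852779-213853028, minus strand).
Ckm: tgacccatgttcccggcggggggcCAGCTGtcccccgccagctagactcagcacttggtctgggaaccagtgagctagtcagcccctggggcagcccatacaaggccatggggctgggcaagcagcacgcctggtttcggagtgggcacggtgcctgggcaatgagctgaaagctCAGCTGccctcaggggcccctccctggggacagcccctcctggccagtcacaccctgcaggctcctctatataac
Myh4: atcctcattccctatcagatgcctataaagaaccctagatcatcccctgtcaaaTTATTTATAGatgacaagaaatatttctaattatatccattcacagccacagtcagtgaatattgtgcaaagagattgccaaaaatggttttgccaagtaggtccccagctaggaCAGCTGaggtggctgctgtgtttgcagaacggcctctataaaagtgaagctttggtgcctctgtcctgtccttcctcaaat
Myoz2: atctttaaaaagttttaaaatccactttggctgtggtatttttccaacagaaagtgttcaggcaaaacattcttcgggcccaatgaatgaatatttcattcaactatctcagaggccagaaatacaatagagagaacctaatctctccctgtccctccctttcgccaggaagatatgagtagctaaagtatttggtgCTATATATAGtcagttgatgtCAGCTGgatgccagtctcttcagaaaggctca

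Of the 29 measured muscle genes, 26 had a promoter in the RefSeq table. The E-box stood in 10 of these 26 windows (38.5%), against 12.0% of the 33469 promoters in the table, and the MEF2 consensus in 4 (15.4%), against 2.96% of all. A match is a string of letters and not evidence that a factor bound there.

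Among the fast-twitch genes, Ckm had levels of 0.99, 5.73, -2.24, -2.23 and -4.91 in BPA25+genistein replicates 1 to 5, against 4.85, 5.07, 5.71, 4.37 and 8.29 in control replicates 1 to 5. BPA25+genistein replicates 1, 3, 4 and 5 lay below every control, and replicate 2, on slide 3, lay above 4 of the 5 controls. The difference was -6.19 (SE 1.84, limma unadjusted p 0.00192, adjusted p 1.00 after rounding). Tnnt3, the fast troponin T that ties the troponin complex to tropomyosin, had 1.31, 4.58, 0.12, 0.91 and -0.33 in BPA25+genistein, against 4.32, 4.42, 5.21, 3.96 and 7.63 in controls. It was well above background on all 10 arrays, and its difference was -3.79 (SE 1.10). Acta1, the actin of skeletal muscle fibres, had -0.27, 4.47, -3.50, -0.21 and -3.04 in BPA25+genistein, against 3.74, 3.87, 4.42, 3.17 and 7.0 in controls. The same 4 arrays were low in both genes, and the groups overlapped only through replicate 2.

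The other fast-twitch genes followed the same arrays. Tnni2, the inhibitory subunit of fast troponin, had 2.63, 6.20, 0.81, 0.20 and 0.30 in BPA25+genistein, against 6.63, 6.24, 7.19, 6.56 and 8.95 in controls. The groups did not overlap for this gene, although replicate 2 missed the lowest control by little, and its replicate 4 value came from the dark block. The difference was -5.09, and -4.63 without the block. Myl11, the regulatory light chain of fast myosin, did not overlap either and had 3.56, 6.03, -2.11, 5.52 and -3.02, against 7.33, 7.14, 8.29, 7.34 and 8.85 in controls. Only 18 of all 16152 genes (0.111%) had groups that did not overlap, 11 higher (0.0681%) and 7 lower (0.0433%). Differences were -5.46 for Tnnc2, the calcium-binding troponin subunit, -5.02 for the calcium buffer Pvalb and -3.65 for Atp2a1, the calcium pump of fast fibres. They were -5.67 for Myh2 (in the dark block, -5.69 without it), -5.18 for Myh4, -4.13 for the Z-disc actinin Actn3 and -3.04 for muscle enolase Eno3. Myh2 was not well above background on BPA25+genistein replicates 3, 4 and 5. The myosin heavy chains are near-identical copies of each other, so a probe for 1 of them can also bind another.

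**Figure D1:**
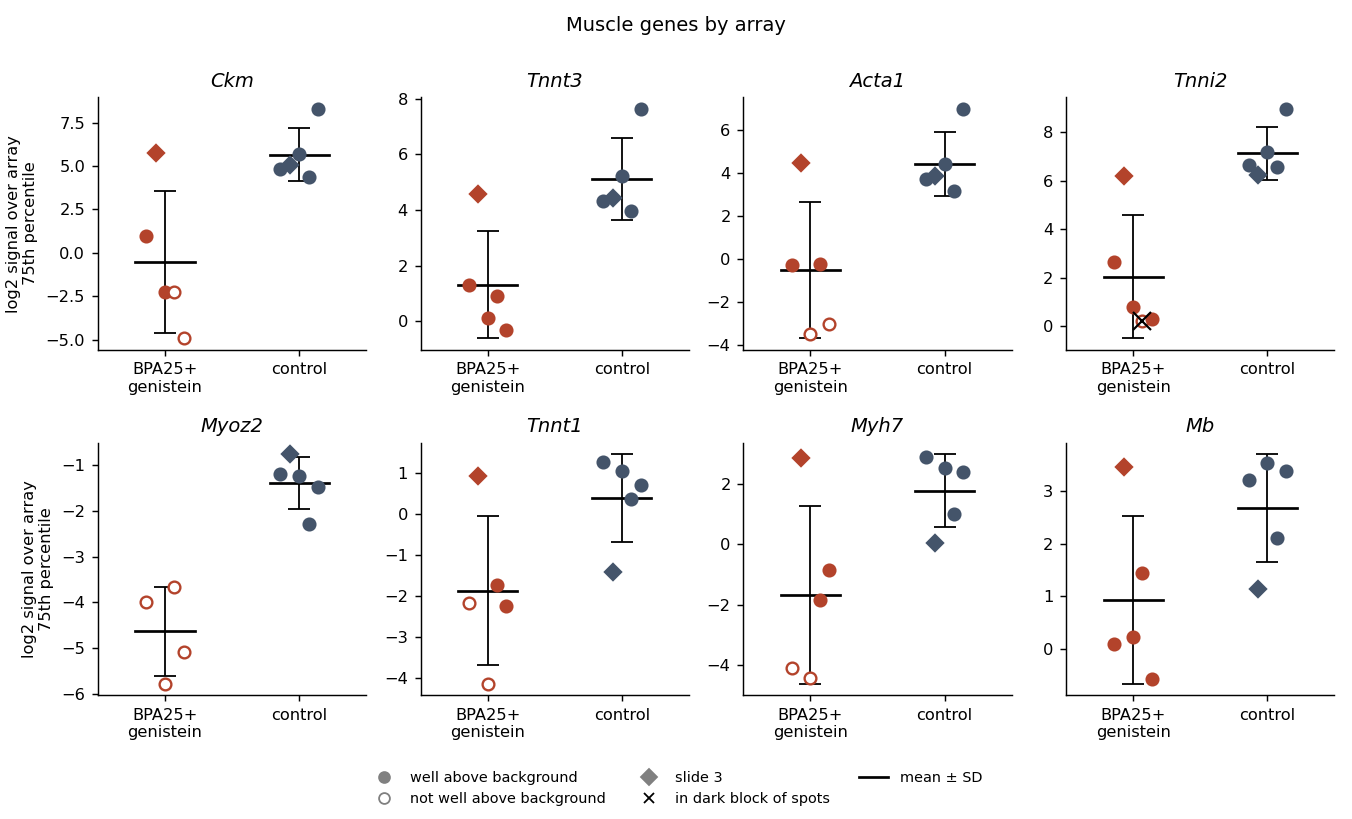
Levels of 4 fast-twitch genes (top) and 4 slow-twitch genes (bottom) on each array, as log2 signal over the array's 75th percentile, with BPA25+genistein to the left of control, bars for mean ± SD, open symbols where the spot was not well above background, diamonds for slide 3 and a cross for a spot in the dark block. In BPA25+genistein the slide 3 array, replicate 2, sits within or above the control range in 6 of the 7 panels where it is plotted and just below it for Tnni2, while the other 4 arrays lie lower, and Myoz2 has no point for replicate 2 because its spot carries an outlier flag.

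The slow-twitch genes gave the gene with the smallest p. Myoz2 had -3.99, -5.78, -3.67 and -5.09 in BPA25+genistein replicates 1, 3, 4 and 5, against -1.20, -0.76, -1.22, -2.29 and -1.48 in controls. None of those 4 spots was well above background, so the size of the Myoz2 difference on those arrays was not measured. The fitted difference was -3.24 (SE 0.67, limma unadjusted p 3.37e-05, adjusted p 0.544). The spot of replicate 2 was left out of the fit because it carried an outlier flag, and it read 0.41, above every control. With outlier-flagged spots kept, the difference of Myoz2 was -2.23 and its groups overlapped. It was -0.72 in the authors' deposited table and -0.36 after normexp correction with quantile normalization, both smaller in size than the fitted difference. The cause was not tested.

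Slow troponins, myosins and oxygen storage genes had low values on the same 4 arrays. Tnnt1, the slow troponin T, had -2.16, 0.93, -4.13, -1.74 and -2.25 in BPA25+genistein, against 1.25, -1.41, 1.04, 0.35 and 0.71 in controls. Mb, the oxygen-binding myoglobin, had 0.09, 3.47, 0.23, 1.45 and -0.57 in BPA25+genistein, against 3.22, 1.14, 3.54, 2.12 and 3.40 in controls. In both genes the slide 3 array was high in BPA25+genistein and the lowest of the controls, so their order was turned on that slide. Differences were -2.72 for Csrp3, a LIM protein of the Z-disc, -2.31 for slow troponin I, Tnni1, -2.68 for the light chain Myl2 and -3.44 for Myh7, the slow myosin heavy chain. Csrp3 and Tnni1 were not well above background on BPA25+genistein replicates 1, 3, 4 and 5, so their sizes were not measured there. Among the alternative scalings, the difference smallest in size was -0.62 for Tnnt1, -0.86 for Csrp3 and -0.60 for Tnni1. It was -1.28 for Myl2 and -1.32 for Myh7. The probe for Myh7 can also bind Myh6, its near-identical neighbour. The 4 slow-twitch genes with an unadjusted p over 0.05 were Tpm3 (-0.79, in the dark block, and 0.04 without it), Casq2 (-0.55), Atp2a2 (-0.13) and Myh7b (0.00). Tropomyosin 3 and the calcium pump of Atp2a2 are also made in cells other than muscle.

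Slides held the muscle difference unevenly. Replicate 2 of both groups shared slide 3, and there 25 of 27 muscle genes with both values were higher in BPA25+genistein, with median differences of 0.32 for the fast list and 2.07 for the slow list. BPA25+genistein replicate 4 and control replicate 3 shared slide 7, and there 28 of 29 muscle genes were lower in BPA25+genistein, with medians of -3.96 and -3.05. The exception was Myh7b, at 0.66 on the BPA25+genistein array and -0.59 on the control array. No other slide held both groups. Without slide 3 the list medians were -5.83 and -3.20, and 24 of the 29 genes had groups that did not overlap (4 arrays against 4), against 1.78% of all genes in the lower and 1.24% in the higher direction. Even then 0 genes passed the adjusted threshold in limma.

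The genes with the smallest p among the lower ones, chosen by p and by a difference of at least 0.58, included further genes made in muscle. Eef1a2, the translation elongation factor of muscle and nerve, had -2.59, 0.82, -5.63, -2.03 and -4.71 in BPA25+genistein, against 0.63, 0.40, 1.54, -0.02 and 3.04 in controls, with replicate 4 in the dark block. Ckmt2, the creatine kinase of muscle mitochondria, differed by -3.93, the membrane acyltransferase-like gene Hhatl by -4.15, the fat storage gene Fitm1 by -3.26 and Tceal7 by -2.94. Each of these 4 was highest on replicate 2 among the BPA25+genistein arrays. Eef1a2, Hhatl, Fitm1 and Tceal7 were not well above background on replicates 1, 3, 4 and 5, nor Ckmt2 on 1, 3 and 5. The sizes of the differences were not measured on those arrays. Among the alternative scalings, the difference smallest in size was -1.72 for Eef1a2, -1.41 for Ckmt2 and -1.66 for Hhatl. It was -1.11 for Fitm1 and -0.72 for Tceal7. Cox8b, the subunit of cytochrome oxidase made in muscle and brown fat, differed by -3.08, while the other 4 measured genes of the brown fat list lay between -0.31 and 0.10.

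Metrn, which encodes the secreted factor meteorin, was low on replicate 2 as well. It had -3.24, -2.22, -2.78, -3.20 and -2.23 in BPA25+genistein, against -0.89, -1.47, -0.65, -1.12 and -0.24 in controls. Every BPA25+genistein array was below every control, on slide 3 too. The difference was -1.86 (SE 0.53, limma unadjusted p 0.00133, adjusted p 1.00 after rounding). The gene was well above background on 3 of 5 BPA25+genistein arrays and on all 5 control arrays.

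The factors that set the muscle programme were thinly measured, 3 of 8 in the list. Myod1, the master switch of muscle fate, had -3.04, -0.54, -5.37, -4.23 and -4.45 in BPA25+genistein, against -1.91, -1.48, -1.06, -2.19 and 0.94 in controls, a difference of -2.39. Replicates 1, 3, 4 and 5 of BPA25+genistein lay below the lowest called signal of their arrays, so the size of the Myod1 difference was not measured there. Myogenin, Myog, which drives the fusion and maturation of fibres, differed by -1.67. Across the alternative scalings the difference ran from -2.42 to -0.72 for Myod1 and from -1.71 to -0.77 for Myog. Of the 3 measured members, 2 had lower and 1 a higher mean, at a difference of 0.74. The named members were chosen after their values had been seen, since the list is under the minimum of 5 measured members.

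The muscle lists were compared across groups to see where BPA25+genistein stood. The fast-twitch list mean was 0.21 ± 2.66 (SD, n = 5) in BPA25+genistein, 4.49 ± 1.59 in BPA25, 0.25 ± 2.11 in BPA250+genistein, 1.86 ± 2.02 in BPA250 and 4.61 ± 1.36 in controls. The slow-twitch list mean was -0.77 ± 1.37 in BPA25+genistein, 1.59 ± 0.87 in BPA25, -0.71 ± 0.80 in BPA250+genistein, -0.50 ± 0.96 in BPA250 and 1.10 ± 0.61 in controls. Low muscle values also stood on arrays of groups without genistein: with I3C, a compound of cruciferous vegetables, the fast-twitch mean was 1.12 ± 3.65 in BPA25+I3C and -0.61 ± 2.15 in BPA250+I3C, and the slow-twitch mean was -1.03 ± 0.83 in BPA25+I3C and -1.17 ± 0.94 in BPA250+I3C. Against the same controls, median differences of the fast list were -4.60 in BPA25+genistein, -4.55 in BPA250+genistein, -3.69 in BPA25+I3C and -0.14 in BPA25. Those of the slow list were -2.31 in BPA25+genistein, -2.17 in BPA250+genistein, -2.72 in BPA25+I3C and 0.65 in BPA25. BPA25+genistein arrays lay on slides 2, 3, 5, 7 and 10, and BPA250+genistein arrays on 2, 4, 5, 8 and 10. Controls lay on slides 1, 3, 7, 8 and 9, and BPA25 arrays on 1, 3, 6, 7 and 9. BPA25+I3C arrays lay on slides 2, 4, 8, 9 and 10. Group and slide thus went together in part and cannot be fully told apart in these comparisons.

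**Figure D2:**
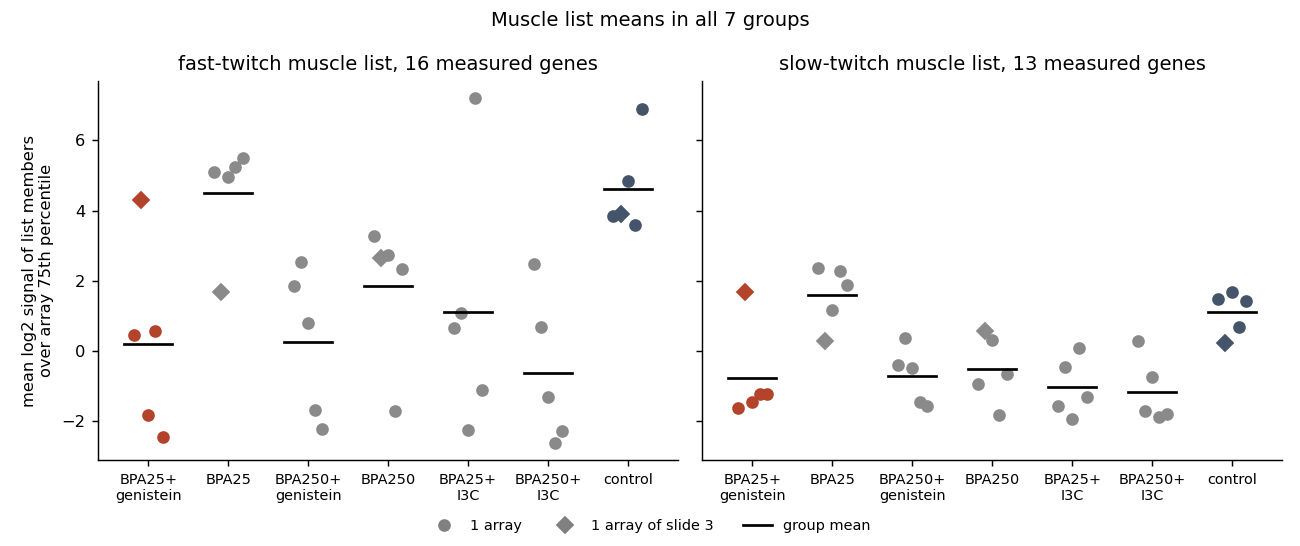
Mean log2 signal of the 16 fast-twitch genes (left) and the 13 slow-twitch genes (right) on each of the 35 arrays, by group, with a line at each group mean and diamonds for slide 3. BPA25+genistein (first, red) has a fast-twitch mean of 0.21 and 4 of 5 arrays below the lowest control (3.59), and low arrays also stand in the BPA250 and I3C groups.

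Against BPA25, which has the same BPA dose and no genistein, 1 of 16152 genes passed in limma (0.00619%), and 764 had an unadjusted p under 0.05 (4.73%). The gene was Myoz2, with a mean of -4.63 ± 0.98 in the 4 BPA25+genistein arrays used and -0.74 in BPA25 (difference -3.90, SE 0.67, limma adjusted p 0.0321). None of these 4 BPA25+genistein spots was well above background, so the size of the difference was not measured on those arrays. This limma call was lost with outlier-flagged spots kept (difference -2.89, adjusted p 0.915), in the authors' deposited table (-1.03, adjusted p 0.911) and after normexp correction with quantile normalization (-0.59, adjusted p 0.993). It was lost with median centring too, where the difference of -4.14 was wider (limma adjusted p 0.421). Leaving out BPA25+genistein replicate 1, 3 or 5 also lost the call (limma adjusted p 0.0678, 0.530 and 0.299). All 16 fast-twitch genes and 10 of 13 slow-twitch genes had an unadjusted p under 0.05 in this comparison, with median differences of -4.32 and -2.99. BPA25 and BPA25+genistein shared only slides 3 and 7. Against BPA250+genistein, 0 genes passed (0.0%), 318 had an unadjusted p under 0.05 (1.97%), and the list medians were 0.02 and -0.08.

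Genes with higher means in BPA25+genistein were scattered over functions, and many were near the limit of detection in controls. Mrgprb2, in mouse a receptor of connective tissue mast cells, had -1.23, -3.52, -1.05, -1.82 and -2.08 in BPA25+genistein, against -4.20, -3.39, -4.29, -5.16 and -3.43 in controls. It was well above background on 4 BPA25+genistein arrays and 1 control array, and the slide 3 pair did not share the direction. The difference was 2.15 (SE 0.56, limma unadjusted p 0.000526, adjusted p 1.00 after rounding), and 2.12 without the spot of replicate 4, which lay in the dark block. Across the alternative scalings the difference of Mrgprb2 ran from 0.29 to 2.12. Values of other mast cell genes were lower or near 0. Mcpt1, a mast cell protease, differed by -0.45, and Cma1, chymase, by -1.46 with the dark block and 0.04 without it.

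Tnfsf13b and Creg1 were among the 11 higher genes whose groups did not overlap. Tnfsf13b encodes BAFF, a survival factor for B cells, and had -1.52, -1.64, -1.77, -0.89 and -1.26 in BPA25+genistein, against -2.35, -1.95, -3.71, -2.33 and -2.28 in controls. The difference was 1.11 (SE 0.34, limma unadjusted p 0.00258), and 0.31 under the scaling that gave the lowest value. Against BPA25 it was 0.34 (SE 0.34), and the differences of other groups from the same controls were 0.76 in BPA25, 1.06 in BPA250+genistein and 0.88 in BPA25+I3C. Creg1, a lysosomal glycoprotein, had 2.01, 2.08, 2.64 and 2.14 in BPA25+genistein, against 1.84, 0.62, 1.28, 1.92 and 1.16 in controls, a difference of 0.85 (SE 0.33). Its replicate 2 spot in BPA25+genistein carried an outlier flag and read 1.14, inside the control range.

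Pcyt1b, an enzyme of phosphatidylcholine synthesis, had -1.88, -2.43, 1.43, -0.61 and -1.22 in BPA25+genistein, against -1.26, -2.53, -3.66, -5.06 and -3.42 in controls. The groups overlapped, and the gene was well above background on only 2 control arrays. Kcnk9, a pore-domain potassium channel, differed by 1.11 and overlapped as well. Differences were 1.74 for the chibby family gene Cby2, 1.69 for the mitochondrial gene Bola1 and 1.60 for Prkar1b, a regulatory subunit of protein kinase A. They were 1.37 for the transcription factor Tcf15, 1.13 for the olfactory receptor Or51a25, 0.93 for Isg20l2, an exonuclease of ribosomal RNA maturation, and 0.79 for the ubiquitin-conjugating enzyme Ube2g1. Isg20l2 was -0.02 in the authors' deposited table. The lowest difference among the alternative scalings was 0.76 for Pcyt1b, 0.41 for Kcnk9, 0.50 for Cby2 and 0.50 for Bola1. It was 0.58 for Prkar1b, 0.59 for Tcf15, 0.35 for Or51a25 and 0.15 for Ube2g1.

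**Figure D3:**
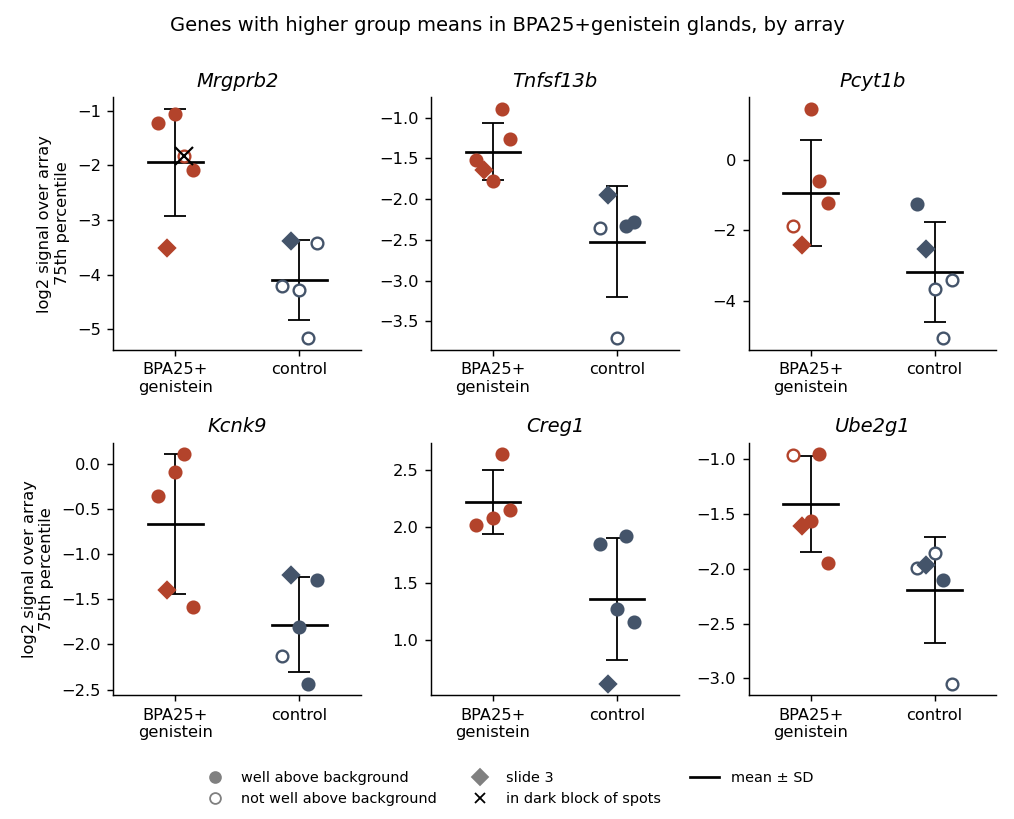
Levels of 6 genes with higher means in BPA25+genistein on each array, as log2 signal over the array's 75th percentile, with BPA25+genistein to the left of control, bars for mean ± SD and open symbols where the spot was not well above background. Tnfsf13b and Creg1 do not overlap between the groups over the arrays used, and 4 of 5 control spots of Mrgprb2 are not well above background.

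Luminal markers of the ducts had lower means for the most part, basal and myoepithelial markers did not, and no gene of either list passed. Of 12 measured luminal genes, 11 had lower means in BPA25+genistein and 1 a higher mean, with a median of -0.62, against 0.04 for all genes. Cldn7, a tight junction protein of luminal cells, had -4.0, -1.21, -3.49, -3.17 and -2.57 in BPA25+genistein, against -1.12, -0.56, -1.33, -2.12 and -1.20 in controls. It was the only luminal gene with an unadjusted p under 0.05 (difference -1.63, SE 0.76, limma unadjusted p 0.0405). The groups overlapped through replicate 2. Cldn7 was not well above background on BPA25+genistein replicates 1, 3 and 4, so the size of its difference was not measured on those arrays. Among the alternative scalings, the difference of Cldn7 smallest in size was -0.67. The keratins of simple epithelium differed by -1.03 (Krt7, SE 0.58) and -0.81 (Krt19, SE 0.54). The luminal median was -0.14 on slide 3 and -0.05 on slide 7, where both groups shared a slide. Without the dark block it was -0.54, with 10 lower and 2 higher. Against the same controls it was -0.38 in BPA25, -0.85 in BPA250+genistein and -1.56 in BPA25+I3C. Of 6 measured basal and myoepithelial genes, 4 had higher means, with a median of 0.38, and Lamb3, a laminin chain of the basement membrane, differed by 0.68 (SE 0.43).

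Hormone receptors, the targets through which both compounds are known to act, were mostly below detection. Esr1, Pgr, Gper1 and Ahr were well above background on 2 of 5 BPA25+genistein arrays and 1 of 5 control arrays each. Esr2 was well above background on 1 array of either group and Cyp1a1 on 2, so none of these 6 was tested. Nr3c1, the glucocorticoid receptor, was measured, differed by 0.35 (SE 0.46) and was named after its value had been seen. Leaving out control replicate 2, on slide 3, gave -0.12 for Nr3c1. The xenobiotic enzyme gene Cyp1b1 differed by 0.01 (SE 0.47), and quantile normalization (-0.25) and median centring (-0.26) turned its sign.

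Genes known to respond to oestrogen in the mammary gland showed no common direction. Of 9 measured, 4 had higher and 5 lower means, with a median of -0.02. Areg, the ERBB ligand that carries the oestrogen signal for ductal growth, had -1.81, -1.74, -1.68, -1.17 and -2.11 in BPA25+genistein, against -1.37, -1.33, -0.75, -1.61 and -0.95 in controls. Its difference was -0.50 (SE 0.56), and it was 0.06 against BPA25. The trefoil peptide Tff3 differed by 0.46 and Igfbp5, which binds insulin-like growth factors in the gland, by 0.58 (SE 0.50). The milk protein genes were as mixed, with 3 higher and 4 lower, but 1 was higher and 6 lower without slide 3 (median -0.26). The casein Csn2 differed by 0.50 (SE 0.49) and Lalba, the lactose synthase subunit, by -0.89 (SE 0.89). Ductal growth factors split 6 higher to 9 lower, among them Tgfbr2 (0.53) and Tgfb3 (-0.56), the receptor and a ligand of the growth-limiting TGF-beta pathway.

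Igf2, the fetal growth factor, had a difference of -2.16 (SE 0.91, limma unadjusted p 0.0230), and 1 spot carried most of it. The levels were 5.48, 3.42, 4.69, -2.02 and 5.60 in BPA25+genistein, against 5.89, 4.15, 5.63, 5.88 and 6.42 in controls. The low value came from the dark block of replicate 4, and the difference without the block was -0.80. Cdkn1a, the p53-induced cell cycle inhibitor p21, differed by -0.98 (SE 0.47, limma unadjusted p 0.0439), and by -0.91 without the block. It had 1.84, 0.30, 1.93, 1.44 and 3.26 in BPA25+genistein, against 3.24, 1.45, 2.35, 3.42 and 3.19 in controls, with overlap. Its level in BPA25 was 1.70, and the difference from BPA25 was 0.05. The 11 measured p53 targets had a median of 0.02.

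**Figure D4:**
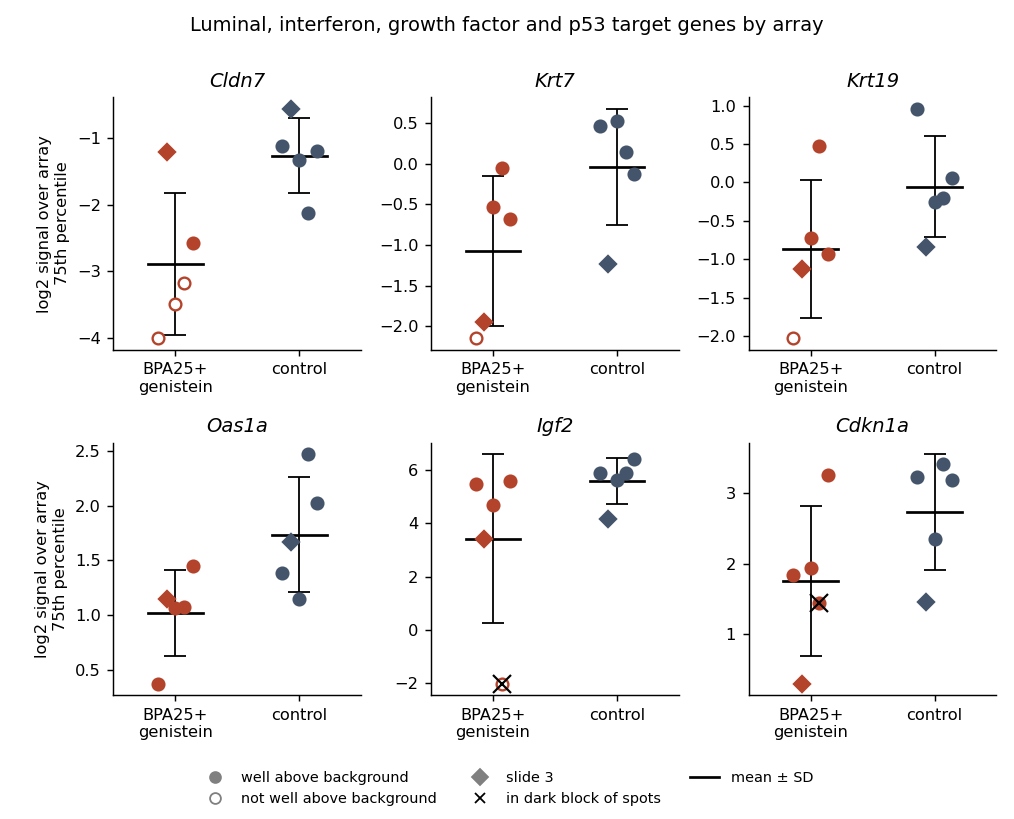
Levels of 3 luminal genes (top) and of Oas1a, Igf2 and Cdkn1a (bottom) on each array, as log2 signal over the array's 75th percentile, with BPA25+genistein to the left of control, bars for mean ± SD, diamonds for slide 3 and a cross for a spot in the dark block. The BPA25+genistein value of Igf2 at -2.02 is such a spot, and all other values of that gene lie between 3.42 and 6.42.

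Among immune genes, Oas1a, an interferon-induced sensor of double-stranded RNA, had 0.38, 1.14, 1.06, 1.07 and 1.45 in BPA25+genistein, against 1.38, 1.66, 1.14, 2.47 and 2.02 in controls. The difference was -0.71 (SE 0.27, limma unadjusted p 0.0133), the groups overlapped, and its copies in the rat genome can share the probe. Isg15, the ubiquitin-like interferon product, differed by -0.75, while 5 of the 11 measured interferon-stimulated genes had higher means and the list median was -0.17. Macrophage genes split 5 higher to 7 lower with a median of -0.03, and 1 higher to 11 lower without slide 3 (median -0.10). The 9 measured glucocorticoid-induced genes had lower means, with a median of -0.40. Without the dark block the median was -0.20, with 8 lower and 1 higher, and without slide 3 it was -0.29, with 7 lower and 2 higher. Fkbp5, a co-chaperone of the receptor, differed by -0.65 (SE 0.37), and the list median was -0.46 in BPA25 against the same controls. The clock gene Cry2 differed by 0.71 (SE 0.37) and the clock list by a median of -0.01.

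With all arrays, medians of the fat cell lists lay close to control, and 0 of their genes passed the test. The 12 adipocyte markers had a median of -0.12, with 0.34 (SE 0.24) for Cebpa, the transcription factor of fat cell maturation. The 11 measured genes of fatty acid synthesis had a median of 0.13, with 7 higher and 4 lower. Me1, which supplies NADPH, differed by 0.74 (SE 0.67) and Acss2, which activates acetate, by 0.49 (SE 0.36). Against BPA25 the median of this list was -0.79, and BPA25 against controls had a median of 1.00. On slide 3 the fatty acid list differed by a median of -1.04 from the control of that slide, and on slide 7 by 0.22. Without slide 3 its median was 0.46, with 9 higher and 2 lower. The 18 measured genes of cholesterol synthesis had a median of -0.11 against controls and -0.54 against BPA25. The triglyceride gene Dgat1 differed by -0.62 (SE 0.51).

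Cell division, matrix and energy genes differed little. Of 17 measured genes of mitosis, 14 had lower means with a median of -0.25, among them Birc5, the survivin of the mitotic spindle (-0.57, SE 0.38). DNA replication genes had a median of 0.05, oxidative phosphorylation 0.05, collagens -0.10 and DNA methylation and histone enzymes 0.13. Col5a1, a fibrillar collagen, differed by -0.43 (SE 0.39). None of the genes in these lists had an unadjusted p under 0.05. The list medians near 0 changed sign with the scaling for DNA replication, the IGF axis, DNA repair, sterol sensing and transport and fibroblast genes, each under 3 of 4 scalings.

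**Figure D5:**
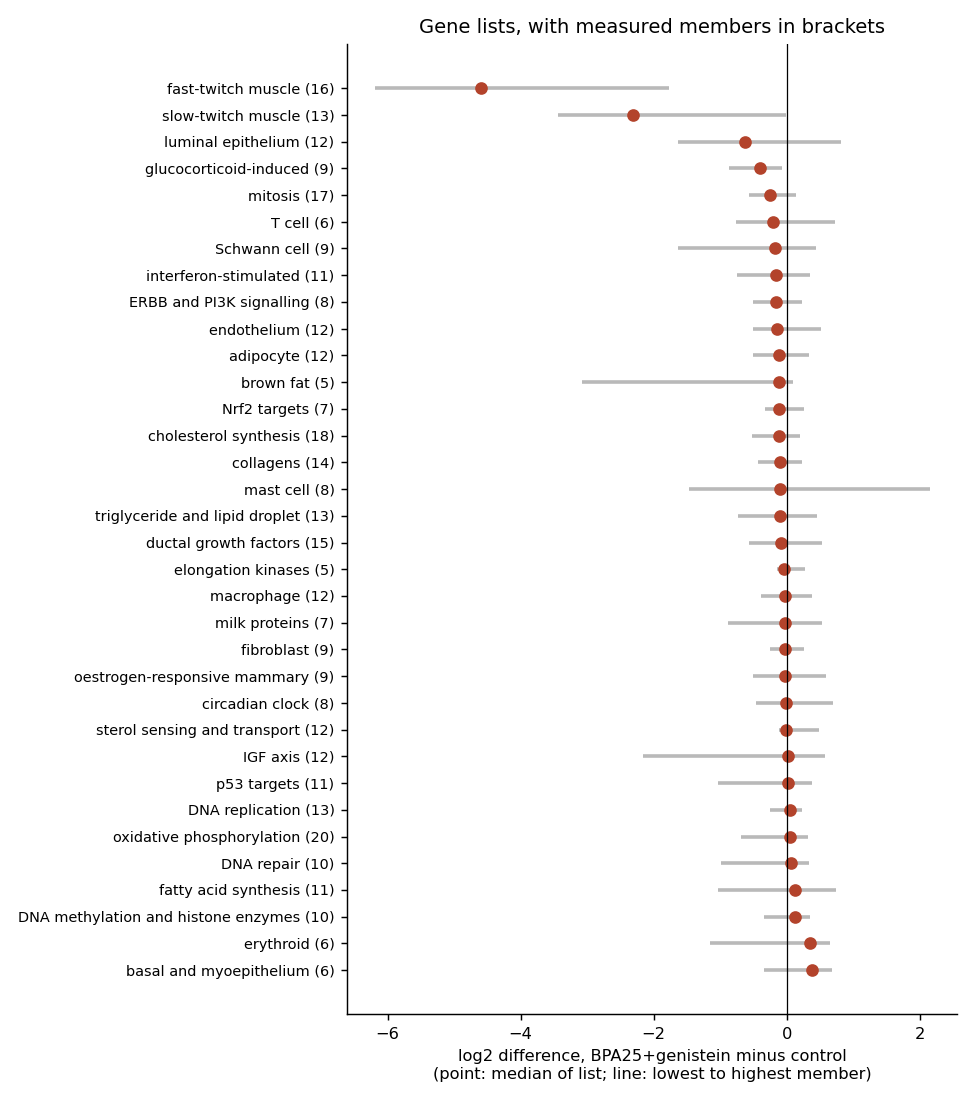
Median (point) and lowest to highest member (line) of the log2 differences, BPA25+genistein minus control, for the 34 gene lists with at least 5 measured members, whose number stands in brackets. Both muscle lists lie apart at -4.60 and -2.31, and the other medians run from -0.62 for luminal epithelium to 0.38 for basal and myoepithelium.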

How the data were processed

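Per the file headers, each array was deposited as spot-level output of Agilent Feature Extraction (9.5.3.1, also in the submitters' processing notes), on probes placed on the rn3 build. The processed signal is an intensity, background-subtracted and detrended per the file headers, and the mean signal and local background are intensities as scanned. Deposited flag columns (0 or 1, other) mark outlier, saturated and well-above-background spots. The authors' table holds log2 values, with medians of 6.55 to 6.58 per array. Its direction is that of signal, and its normalization is not given in the sources used here.

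The deposited intensity was taken to log2 minus each array's 75th percentile, outlier-flagged spots were set to missing, and probes spotted 10 times were averaged. Of 41012 probes, 18996 were well above background on at least 4 of 5 arrays of a group and missing on at most 5 arrays. The brightest probe stood for each of 16152 genes, 9410 named through RefSeq (GRCr8) and the rest by the array's own name. Probes of a gene can disagree. Group means of all 35 arrays were fitted with limma 3.58.1 in R 4.3.3 (data.table, version 1.17.8), with Benjamini-Hochberg adjustment over all genes. The fit was tested on simulated data with independent values and no slide or scan day effects, so that test does not cover such effects. Tables and figures used Python 3.11.15 with pandas 2.3.3 and matplotlib 3.10.9. No saturated spot was left out: Tnni2 and Myl11 were saturated on 1 or 2 arrays of a group. The number of arrays limits the precision, and nothing in the labels ties arrays to litters. The p-values measure the spread between arrays, with that of animals, slides and scan days together. Over all 35 arrays, slide held 61.4% of the variance, scan day 39.4% and group 16.4%, each taken alone. Any grouping of arrays holds some share, larger with more levels, and these shares were not set against chance.

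Named genes were up to 15 called genes per direction, each direction filled to 12 with the smallest p among genes with a difference of at least 0.58 that RefSeq names and at least 4 of 5 arrays of either group detected, the 4 members of smallest p of each list with at least 5 measured members, and 9 looked-up genes (Esr1, Esr2, Pgr, Gper1, Ahr, Cyp1a1, Cyp1b1, Csn2, Myoz2). Further members of the muscle lists, the myogenic factors and Nr3c1 were named after their values were seen. Some genes that fall under the rule are not reported here. Members, lists and rules were chosen with earlier results of these data known. Alternatives covered scaling, background, filters, probes, blocks, array weights, slide 3 and each array left out. The dark block was masked as an alternative chosen after seeing the data.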

Additional observations from a re-analysis of the deposited data

Results flagged for a closer look

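In 142 groups of 4 or 5 values, 19 held a value far from the rest of its group, where chance gives about 1 in 20. Of these, 12 were on slide 3 and 2 in the dark block of BPA25+genistein replicate 4.

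In BPA25+genistein, replicate 4 was low for Igf2 (-2.02) and Cma1 (-1.76), both in the block. On slide 3, replicate 2 was high for Csrp3 (0.91) and low for Tgfb3 (-1.77), Me1 (-0.22), Col5a1 (3.16), Mcpt1 (1.37) and Atp2a2 (2.22). Replicate 1 was high for Cebpa (2.10).

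In controls, replicate 2, on slide 3, was low for Cma1 (4.10), Dgat1 (3.81), Tpm3 (3.32), Col5a1 (3.31), Mcpt1 (1.58) and Nr3c1 (-0.71). Replicate 5 was high for Fitm1 (1.99) and Myog (1.75) and low for Ube2g1 (-3.05). Replicate 3 was low for Tnfsf13b (-3.71).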

How the results depend on the processing

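Against control, 0 genes were called with each array left out in turn, and 1 gene (Myoz2) with slide as a random block and 1 with scan day as a fixed block. Array weights called 63, of them 17 in the muscle lists. The cause was not tested. Genes with an unadjusted p under 0.05 numbered 271, and 412 after normexp, 422 in the authors' deposited table, 522 with no filter, 59 over genes detected on all 10 arrays, 1699 with slide fixed, 1449 with slide random, 846 with scan day, 1069 with array weights, 701 without slide 3, and 627 without slide 3 and the dark block. Leaving out 1 array gave 191 (without BPA25+genistein replicate 4) to 701 (without control replicate 2). Arrays of equal replicate number were scanned on the same day in 4 of 5 pairs, but nothing in the labels ties them and their r ran from 0.02 to 0.83, so they were not taken as pairs. The replicate block gave 506 such genes and 0 calls.

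Against BPA25 the 1 call was 0 under median centring, normexp, the authors' table, no filter, detection on all 10 arrays, outlier spots kept and slide fixed, 74 with array weights, 19 without slide 3 and 20 without slide 3 and the block. It ran from 0 to 7 with 1 array left out, 7 without BPA25+genistein replicate 2. Against BPA250+genistein, calls were 2 with slide fixed, 6 with slide random and 2 with array weights, and 0 to 1 with 1 array left out.

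Signs turned for few genes. Isg20l2 was -0.019 in the authors' table. Without the block Cma1 was 0.042 (0.079 without slide 3 too) and Tpm3 0.042. Atp2a2 was 0.11 with scan day. Cyp1b1 was -0.25 with quantile normalization, -0.26 with median centring, -0.14 with slide random and -0.070 with scan day. Myh7b was 0.20 with median centring, 0.12 with slide fixed, 0.019 with slide random, 0.13 with scan day, 0.069 with the replicate block and 0.11 without slide 3, with or without the block. With 1 array left out, Cma1 ran from -1.96 to 0.042, Tpm3 from -1.22 to 0.042, Nr3c1 from -0.12 to 0.75, Atp2a2 from -0.53 to 0.24, Cyp1b1 from -0.20 to 0.40 and Myh7b from -0.25 to 0.11. Of 1945 checks on 71 named genes, 1886 kept direction and side of the threshold, 26 crossed it and 33 turned. The alternatives masking the dark block were chosen after seeing the data.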
